A study of Mus musculus with 16 samples.

Results

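The microRNAs miR-221 and miR-222, which are neighbours on the mouse X chromosome, were followed across 16 liver samples. They were taken as the 2 entries named mmu-miR-221 and mmu-miR-222 among the 566 mouse miRNAs on the array. A miRNA is a short RNA that guides silencing proteins to matching sites in messenger RNAs, and its seed, bases 2 to 8 from the 5′ end, does most of the matching. Both miRNAs are cut from 1 precursor transcript and share their seed. In human liver cancer the pair is often raised, and its best known targets are the cell-cycle inhibitors Cdkn1b and Cdkn1c. Transcription of the cluster is known to respond to Ras signalling and to AP-1 factors in several human and rodent cell types.

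The samples came from male C3H/HeJ mice, an inbred strain prone to liver tumours, in a study that started tumours with the carcinogen diethylnitrosamine (DEN). There were 7 Ctnnb1-mutated tumours and 3 non-tumour control livers from mice given phenobarbital, a barbiturate that promotes liver tumours, and 3 Ha-ras-mutated tumours and 3 non-tumour control livers from mice given none. Beta-catenin, the product of Ctnnb1, carries Wnt signals to the nucleus, and the GTPase made from Ha-ras feeds the MAPK cascade. The control livers without phenobarbital are called untreated controls, although the labels do not state which controls received DEN. The texts give DEN at 10 or 90 µg per g at 2 or 6 weeks of age, and phenobarbital at 0.05% for 28 to 36 weeks in the design text, for 27 weeks in the sample labels and for 28 days in the treatment protocol. Tumours are whole pieces of tissue, so fewer cells of a type and less RNA per cell cannot be told apart in any value below. No label says whether each sample is a different animal, so all p-values measure only the spread between these samples.

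The mature strands are shown because the seed, in capitals, is what the pair has in common. Sequences are those of RefSeq on GRCm38.p6, written 5′ to 3′; the array's names carry no arm, and the 3p strands are those that bore the plain names before arms were added.
mmu-miR-221-3p, chrX:19146307-19146329, minus strand: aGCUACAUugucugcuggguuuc
mmu-miR-222-3p, chrX:19146901-19146923, minus strand: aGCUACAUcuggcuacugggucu

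The strands share their first 8 bases, and 11 of 23 positions hold the same base. Of 1679 mature mouse miRNA names in the RefSeq table, 3 carried this seed, and the third, miR-1928 of chromosome 1, had no entry on the array. The hairpins from which the strands are cut lie 504 bases apart on the minus strand and span 678 bases together. They are shown to place the mature strand, in capitals, within each precursor.
Mir221 hairpin, chrX:19146294-19146388, minus strand: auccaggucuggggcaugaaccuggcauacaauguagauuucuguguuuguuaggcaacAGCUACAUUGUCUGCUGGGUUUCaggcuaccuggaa
Mir222 hairpin, chrX:19146893-19146971, minus strand: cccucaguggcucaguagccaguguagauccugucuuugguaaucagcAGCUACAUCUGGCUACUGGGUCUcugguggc

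In both hairpins the mature strand lies in the 3′ arm, at bases 60 to 82 of the 95 of Mir221 and at bases 49 to 71 of the 79 of Mir222.

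Each sample was hybridised to its own 1-colour array, which carried each member on 2 probes of 10 spots each. The 75th percentile of the reliably detected mouse probes, a measure of an array's brightness, lay between 386 and 1248 intensity units, and between 83 and 117 mouse miRNAs were detected on an array. No spot was saturated. Intensities were divided by this percentile and multiplied by a constant shared by all arrays. They were then lifted to 24.96 where they were lower (the floor, 4.64 after log2) and taken to log2. limma was run on the 96 mouse miRNAs that all arrays of some group detected, with Benjamini-Hochberg adjustment over the 96 and a threshold of 0.05. The hepatocyte markers fitted the liver label, since 6 of 6 were tested, and miR-122, the main liver miRNA, averaged 13.67 ± 0.40 on the log2 scale in Ctnnb1 tumours (SD, n = 7) and 14.09 ± 0.13 in phenobarbital controls (SD, n = 3). It averaged 14.26 ± 0.26 in Ha-ras tumours and 14.19 ± 0.05 in untreated controls (SD, n = 3 each).

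The 2 members of the cluster stood on opposite sides of the detection limit. For miR-221, 271 of 307 spots over the 16 arrays were well above background. For miR-222, 0 of 309 spots were. The background-subtracted signal of a miR-222 probe on an array lay between -3.10 and 14.1 intensity units, and 9 of its 32 such values were at or below 0. The negative-control spots of the arrays, 607 to 672 on each, averaged 3.92 to 6.75 units with an SD of 5.47 to 6.63, and the miR-222 mean lay within 1 such SD of the control mean on 13 of 16 arrays. Only 6 miR-222 spots (1.94%) exceeded the 95th percentile of their array's negative controls.

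Even the brightest miR-222 value, 18.7 after scaling, stayed under the floor. The array means of miR-222 before scaling ran from -3.09 through a median of -0.06 to 8.95 units in the 7 Ctnnb1 tumours, against -0.91 to 4.90 units in phenobarbital controls. They ran from 1.67 to 5.33 units in Ha-ras tumours and from -0.30 to 1.5 units in untreated controls. The highest, 8.95 units, belonged to Ctnnb1 tumour 5, which had the highest miR-221 level of its group after scaling. Before scaling that place went to Ctnnb1 tumour 6, whose miR-222 mean was 2.03 units. miR-222 was therefore not well above background in any group: no fold, test or ratio to miR-221 can be given for it, and its absence is not shown. Probe brightness also depends on the probe, so the gap between the members is no measure of their relative amounts.

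**Figure D1:**
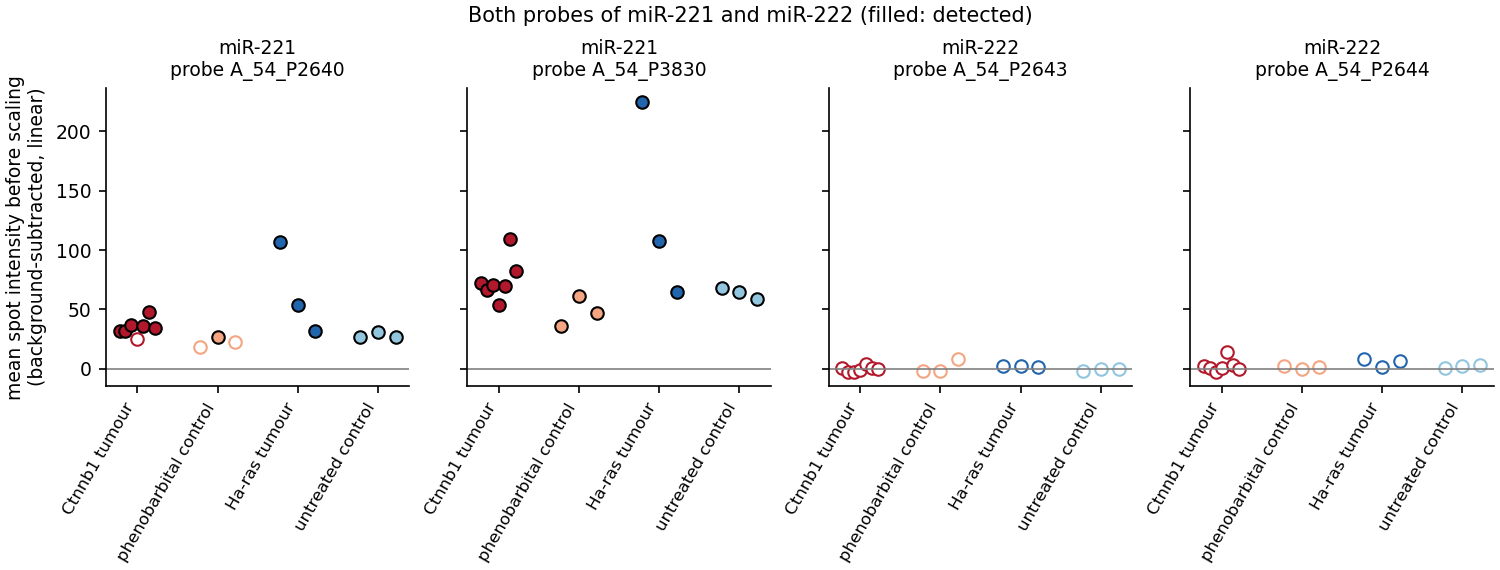
Mean background-subtracted spot intensity before scaling (vertical axis, linear intensity units) of both probes of miR-221 and of miR-222, 1 point per array by group, with filled points where most spots were well above background. Both miR-222 panels stay between -3.10 and 14.1 units with open points throughout, while probe A_54_P3830 of miR-221 is filled on all 16 arrays.

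miR-221 was highest in the Ha-ras tumours. Its level was 6.25, 6.05 and 5.93 on the log2 scale in Ha-ras tumours 1 to 3, against 5.37, 5.69 and 5.56 in untreated controls 1 to 3. All 3 tumours lay above all 3 controls. The mean was 6.08 ± 0.16 in Ha-ras tumours and 5.54 ± 0.16 in untreated controls (SD, n = 3 each), a 1.45-fold difference.

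In the Ctnnb1 tumours the level ran from 5.15 through a median of 5.59 to 6.06 (n = 7), while phenobarbital controls 4 to 6 had 5.34, 5.27 and 5.37. The tumours enclosed their controls: 5 of 7 lay above all 3 controls and 2, tumours 1 and 3, lay below all 3. The mean was 5.58 ± 0.33 in Ctnnb1 tumours (SD, n = 7) and 5.33 ± 0.05 in phenobarbital controls (SD, n = 3). The SD of 0.33 among Ctnnb1 tumours was close to the median of 0.30 over the 72 miRNAs detected on all arrays, of which 28 varied more.

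The group means thus ran in the order Ha-ras tumours, Ctnnb1 tumours, untreated controls and phenobarbital controls. The middle 2 were close, at 5.58 and 5.54. They changed places with probe A_54_P3830 alone (6.11 and 6.13) and in the table deposited by the authors (6.06 and 6.20). Of the neighbours, Ha-ras and Ctnnb1 tumours differed in the fit below, the Ctnnb1 tumours enclosed all untreated controls, and the 2 control groups did not pass the test. All 16 levels were low, between 0.51 and 1.61 log2 units above the floor.

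**Figure D2:**
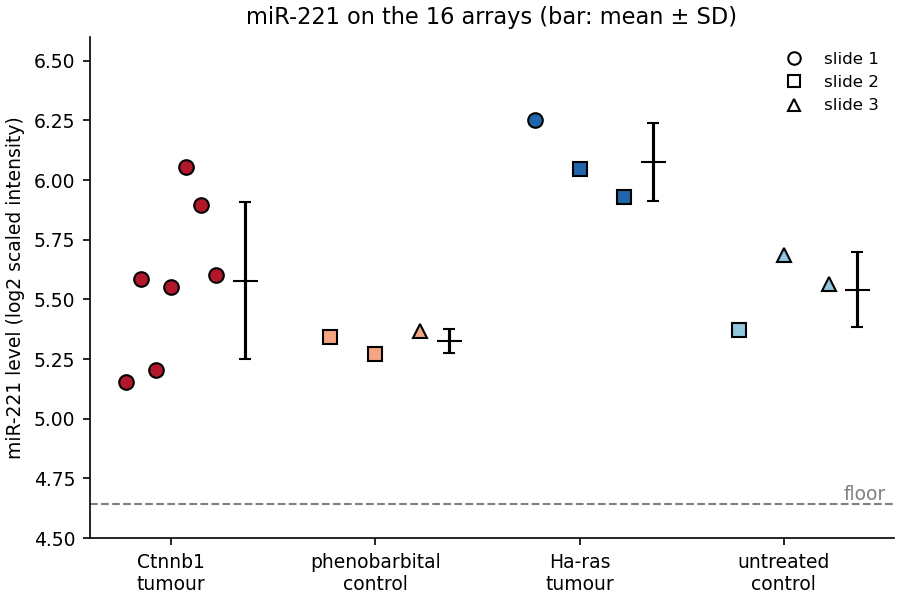
Level of miR-221 (vertical axis, log2 of the scaled intensity) on each of the 16 arrays by group, with the mean and SD of each group beside its points, the slide as the point's shape and the floor as a dashed line. The 3 Ha-ras tumours sit between 5.93 and 6.25, and the 7 Ctnnb1 tumours spread from 5.15 to 6.06.

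The comparison of Ha-ras tumours with untreated controls asks what differs in tumours of this genotype. The log2 fold change of miR-221 was 0.53 (SE 0.20, 95% interval 0.11 to 0.96), with a limma p of 0.0177 and an adjusted p of 0.0549, just outside the threshold. Of all 96 miRNAs, 29.2% were called here, 9.38% higher and 19.8% lower (9 and 19 miRNAs), and in 16.7% all tumours lay above all controls, as for miR-221, while in 26.0% they lay below. The calls split into 12 higher and 0 lower with scaling on all mouse probes, and into 12 and 11 with quantile scaling. An exact two-sided permutation test on miR-221 gave p = 0.1, the smallest that 3 against 3 samples allow, and 0.133 after adjustment over the 4 group comparisons of miR-221. Within slide 2, which held 2 of these tumours and 1 of these controls, the log2 fold change was 0.61 with a limma adjusted p of 0.0841; the lone control is assumed there to vary like the 2 tumours and 2 phenobarbital controls of that slide. Both probes gave a positive difference, 0.61 for A_54_P2640 and 0.46 for A_54_P3830.

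The comparison of Ctnnb1 tumours with phenobarbital controls asks the same of the other genotype. miR-221 was not called: the log2 fold change was 0.25 (SE 0.17, 95% interval -0.11 to 0.61), with a limma adjusted p of 0.411. The interval allows a rise of the size seen in the Ha-ras tumours. Here 8.33% of the 96 miRNAs were called, all of them lower, and the groups did not overlap in 1.04% on the higher and 13.5% on the lower side. An exact two-sided permutation test gave p = 0.225, also 0.225 after adjustment over the 4. No slide held both groups, and with slide as a fixed block the estimate was 0.040 with a limma adjusted p of 0.988.

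Between the tumour genotypes, miR-221 was lower in Ctnnb1 than in Ha-ras tumours, and this was the only one of the 5 contrasts in which it was called. The log2 fold change was -0.50 (SE 0.17, 95% interval -0.86 to -0.14), a 1.41-fold difference, with a limma p of 0.0103 and an adjusted p of 0.0380. Of the 96 miRNAs 30.2% were called, 16.7% higher and 13.5% lower (16 and 13 miRNAs). The split was 2 higher and 20 lower with scaling on all mouse probes, and 22 and 10 when arrays were scaled on the detected probes' median. In 6 of the 7 Ctnnb1 tumours the level lay below all Ha-ras tumours; Ctnnb1 tumour 5, at 6.06, was the exception. The tumour groups did not overlap in 12.5% of the 96 on the higher and 6.25% on the lower side, and miR-221 was not among them. The exact two-sided permutation test gave p = 0.05, and 0.133 after adjustment over the 4.

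Of the 6 hepatocyte miRNAs, 2 were called lower in the same contrast and 0 higher, beside 13.5% and 16.7% of the 96: miR-122, with a log2 fold change of -0.59 (SE 0.20, limma adjusted p 0.0407), and miR-101b, with -0.63 (SE 0.17, limma adjusted p 0.0186). The list's median was -0.36 beside 0.08 over all. The summed scaled intensity of the 6 was 11116 to 21504 in Ctnnb1 tumours and 18766 to 25465 in Ha-ras tumours. Their part in the difference of miR-221 was not tested.

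The call of miR-221 was lost when any 1 of 8 arrays was left out. Without Ha-ras tumour 1, the tumour with the highest level and the brightest array, the log2 fold change was -0.41 with a limma adjusted p of 0.170. Leaving out Ha-ras tumour 2 or 3, or Ctnnb1 tumour 1, 2, 3, 4 or 7, also ended it, with adjusted p-values of 0.0512 to 0.107. Within slide 1, where the 7 Ctnnb1 tumours met a single Ha-ras tumour, the log2 fold change was -0.67; its limma adjusted p of 0.318 takes the whole spread from the Ctnnb1 tumours. The genotypes also differed in phenobarbital, which cannot be told apart from genotype here.

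The tumour effects themselves, Ctnnb1 over phenobarbital controls less Ha-ras over untreated controls, differed by -0.28 for miR-221 (SE 0.26, 95% interval -0.84 to 0.28), with a limma adjusted p of 0.607. This test called 2.08% of the 96 miRNAs. A difference between the genotypes in how far their tumours depart from control liver was thus not shown for miR-221.

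In the control livers, miR-221 averaged 5.33 ± 0.05 with phenobarbital and 5.54 ± 0.16 without it (SD, n = 3 each). All 3 phenobarbital controls lay below all untreated controls, the nearest pair at 5.37 each, as in 10.4% of the 96 miRNAs, while 14.6% lay above. The log2 fold change was -0.21 (SE 0.20, 95% interval -0.64 to 0.21), with a limma adjusted p of 0.654. limma called 0 of the 96 miRNAs (6 at an unadjusted p under 0.05), and the exact permutation p was 0.1, the smallest possible, or 0.133 after adjustment.

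**Figure D3:**
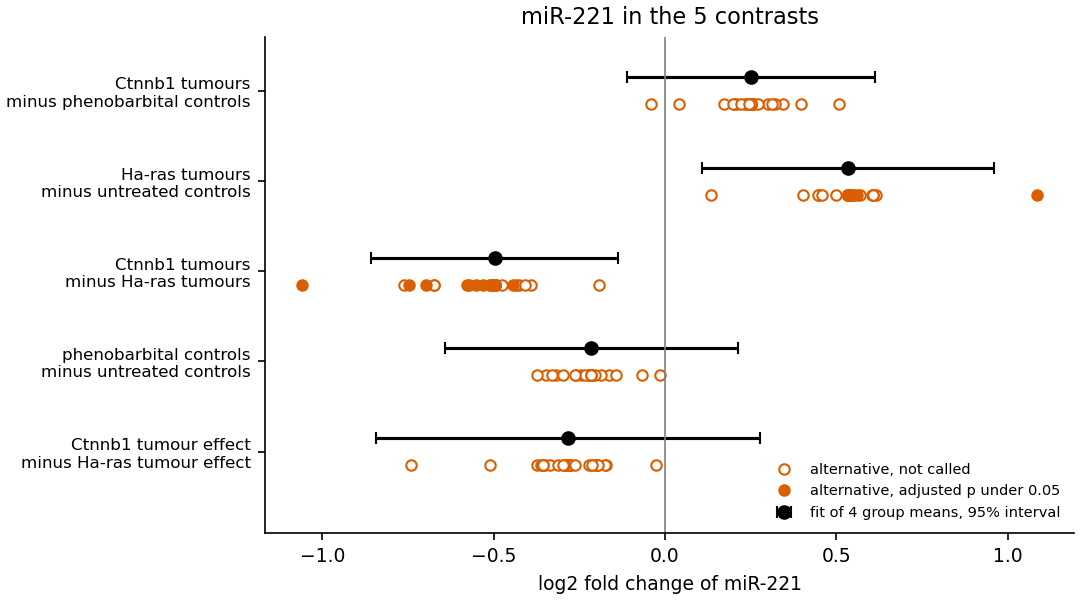
Log2 fold change of miR-221 (horizontal axis) in the 5 contrasts, with black points and bars for the fit and its 95% interval. Orange points give the same contrast under alternative fits, filled where the adjusted p was under 0.05. The Ha-ras contrast is at 0.53 and the contrast of the tumour genotypes at -0.50, and in both some alternatives are called and others are not.

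The choice of probe and table did not turn the direction of any tested contrast. Probe A_54_P2640 was dimmer, with 18.3 to 107 intensity units against 35.8 to 225 for A_54_P3830, and was detected on 3 of 3 Ha-ras tumours, 3 of 3 untreated controls, 6 of 7 Ctnnb1 tumours and 1 of 3 phenobarbital controls. In Ctnnb1 tumours against Ha-ras tumours the probes gave -0.52 and -0.47. The authors' deposited table lists 146 mouse miRNAs with miR-221 among them, and miR-222 was read from the scanner files alone. In the authors' deposited table miR-221 averaged 6.81 ± 0.36 in Ha-ras tumours and 6.20 ± 0.10 in untreated controls (SD, n = 3 each). In the same deposited table it averaged 6.06 ± 0.34 in Ctnnb1 tumours (SD, n = 7) and 5.83 ± 0.13 in phenobarbital controls (SD, n = 3).

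Before any scaling, miR-221 read 166, 80.7 and 48.3 intensity units in Ha-ras tumours 1 to 3, against 47.5, 47.8 and 42.5 units in untreated controls. The highest of these values is that of Ha-ras tumour 1, whose array had the highest 75th percentile, 1248 units. In Ctnnb1 tumours the unscaled values ran from 39.3 through a median of 52.9 to 78.6 units, against 27.0, 44.1 and 34.6 units in phenobarbital controls 4 to 6. Here 6 of 7 tumours lay above all 3 controls and 0 below, unlike the scaled levels, with an exact two-sided permutation p of 0.0417, or 0.133 after adjustment over the 4 comparisons. Only 1 of 7 Ctnnb1 tumours lay below all Ha-ras tumours before scaling, where 6 did after it, and the exact two-sided permutation p was 0.0917, or 0.133 after adjustment.

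Across the 16 arrays the scaled level of miR-221 and that brightness had a Pearson r of 0.15 (permutation p = 0.579) and a Spearman rho of -0.04 (permutation p = 0.883), and r was -0.41 without the 2 arrays farthest from the median brightness. Within the 7 Ctnnb1 tumours r was -0.66 (exact permutation p = 0.108) and rho -0.64 (exact permutation p = 0.139). After adjustment over these 2 relations the p-values of r were 0.579 and 0.215.

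Of a list of 5 miRNAs reported downstream of Ras, MAPK or AP-1, 3 were tested: miR-21, miR-31 and miR-221. The others, miR-222 and miR-155, were detected on no array. In Ha-ras tumours against untreated controls, miR-21 and miR-31 rose. miR-21, a miRNA raised in many tumours, was at 13.32, 13.66 and 13.51 in Ha-ras tumours and at 11.91, 12.35 and 12.39 in untreated controls, a log2 fold change of 1.28 (SE 0.27, limma adjusted p 0.00445). miR-31 was at 5.98, 5.99 and 5.88 in Ha-ras tumours and at 5.04, 5.05 and 4.80 in untreated controls, a log2 fold change of 0.99 (SE 0.11, limma adjusted p 1.91e-05).

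For both of them, and for miR-221, every Ha-ras tumour was above every untreated control, as in 16.7% of the 96. Of the 3, 2 were called higher, beside 9.38%. miR-31 was tested only because every Ha-ras tumour array detected it, beside 2 untreated control arrays and 1 Ctnnb1 tumour array. Its calls in the contrasts with Ha-ras tumours thus partly follow from the filter and the floor, and are no separate support for the list. The median log2 fold change of the 3 tested was 0.99, beside -0.06 over all 96 miRNAs. In Ctnnb1 tumours against phenobarbital controls limma called 0 of the 3. Of the 96, 8.33% were called, all of them lower, and 1 was higher and 20 lower at an unadjusted p under 0.05. The median of the 3 was 0.25 beside -0.05 over all. In Ctnnb1 tumours against Ha-ras tumours 3 of 3 were called lower, beside 13.5% of the 96, with a median of -0.88 beside 0.08 over all. The 3 include miR-221 itself and miR-31, so only miR-21 adds a separate call. Without miR-221 the medians were 1.13, 0.19 and -1.08 in these contrasts, in the order given. These contrasts share their tumour arrays.

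Of 14 miRNAs often reported raised in liver cancer, 8 were tested, miR-222, miR-224, miR-18a, miR-130b and miR-182 were detected on no array, and miR-183 was detected on 2 Ha-ras tumour arrays only. In Ha-ras tumours against untreated controls 8 of 8 had a positive log2 fold change, with a median of 0.53 beside -0.06 over all 96. Of the 8, 3 were called higher, beside 9.38% of the 96: miR-21, miR-34a and miR-96. miR-34a, whose transcription is known to be raised by the tumour suppressor p53, was at 8.68, 8.97 and 8.08 in Ha-ras tumours and at 7.36, 5.67 and 6.79 in untreated controls. Its log2 fold change was 1.97 (SE 0.48, limma adjusted p 0.00845), and the groups did not overlap. miR-96 was at 5.46, 5.94 and 5.32 in Ha-ras tumours, while it was not well above background on any untreated control array. It was at least 1.76-fold higher in the tumours, the bound being set by each control array's lowest detected signal (limma adjusted p 0.0374). miR-96 passed the filter through the Ha-ras tumours, where 3 arrays detected it, beside 4 Ctnnb1 tumour arrays. Its call thus partly follows from the filter and the floor, and its place in these counts is no separate support for the list.

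In Ctnnb1 tumours against phenobarbital controls the same 8 also had positive values, with a median of 0.20 beside -0.05 over all. limma called 0 of them, and it called 0 of the 96 higher, since the 8.33% called were all lower. At an unadjusted p under 0.05, 1 of the 96 was higher and 20 were lower. miR-25 and miR-93, of the cluster that also holds miR-106b, had log2 fold changes of 0.09 and 0.12 in Ctnnb1 tumours and of 0.10 and 0.11 in Ha-ras tumours, none of them called. In Ctnnb1 against Ha-ras tumours miR-21, miR-34a and miR-221 were called lower and 0 of the 8 higher, beside 13.5% and 16.7% of the 96. The median was -0.39 beside 0.08 over all.

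**Figure D4:**
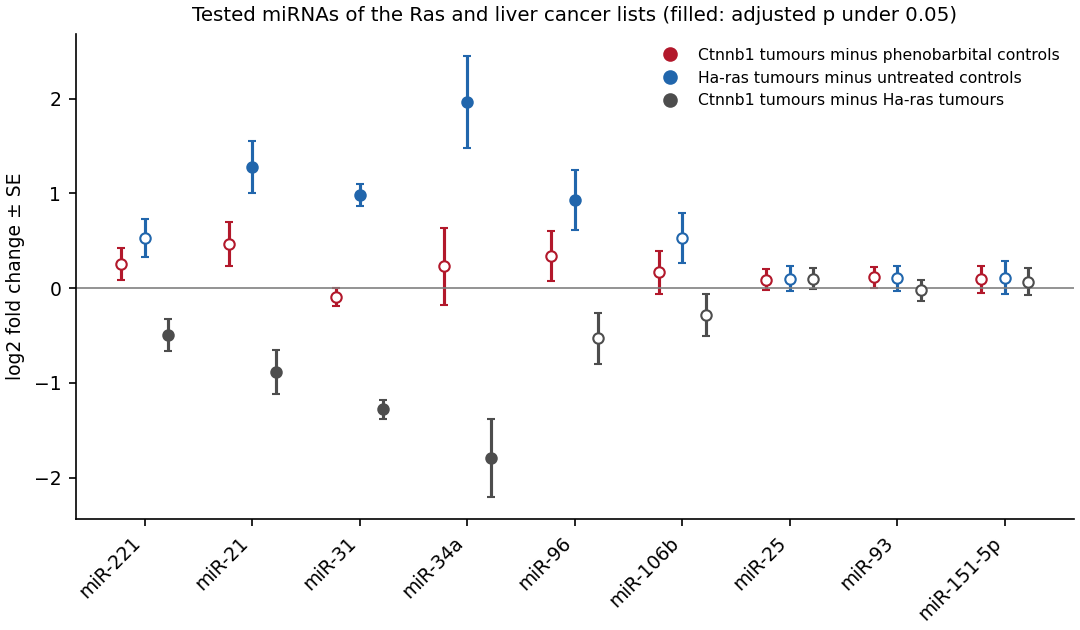
Log2 fold change with its SE (vertical axis) of the tested miRNAs of the Ras and liver cancer lists in Ctnnb1 tumours against phenobarbital controls (red), Ha-ras tumours against untreated controls (blue) and Ctnnb1 against Ha-ras tumours (grey), filled where the adjusted p was under 0.05. miR-221, at 0.53 in Ha-ras tumours, lies below miR-21 at 1.28 and miR-34a at 1.97; fitted values of miR-31 and miR-96 depend on the floor.

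Among the 71 other miRNAs detected on all 16 arrays, those whose log2 levels followed miR-221 most closely were miR-21 (Pearson r 0.74), miR-34a (0.72), miR-106b (0.67), miR-27a (0.66) and miR-24 (0.60). After the group means were subtracted these values were 0.40, 0.38, 0.58, 0.28 and 0.48. The lowest were miR-30b (-0.71), let-7g (-0.69) and miR-10a (-0.65), at -0.36, -0.66 and -0.42 after subtraction. The 16 points share 1 scaling constant per array and the group differences above, so these values describe likeness only.

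**Figure D5:**
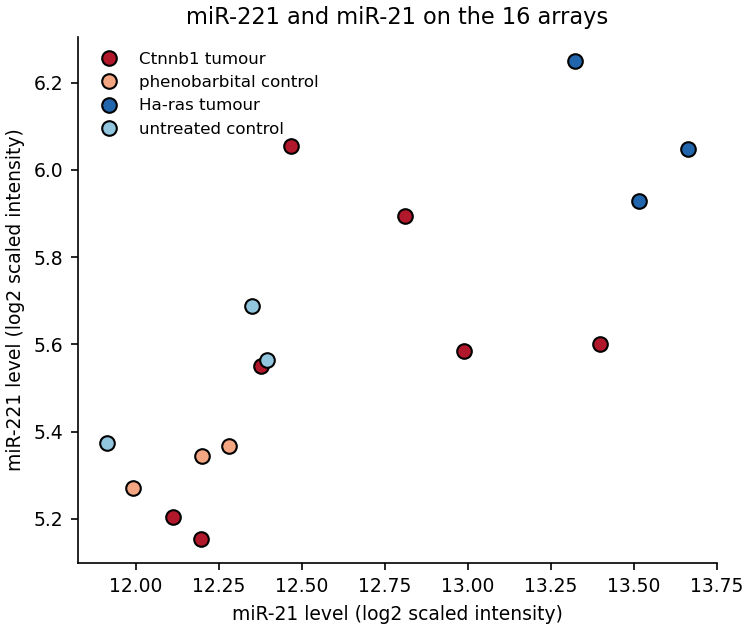
Level of miR-221 (vertical axis) against that of miR-21 (horizontal axis), both log2 of the scaled intensity, 1 point per array coloured by group. The Ha-ras tumours lie at the upper right, with miR-221 between 5.93 and 6.25, and Ctnnb1 tumour 5 reaches 6.06 at a lower miR-21 level.

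miR-222 was 1 of many entries that no array detected. The RefSeq gene table placed 507 of the 566 array miRNAs, 73 of them on chromosome X alone. Of these 73, 64 were detected on no array (87.7%, beside 416 or 73.5% of all 566), and 6 were tested (8.22%, beside 17.0% of all 566). The 6 were miR-221, miR-20b, miR-223, miR-361, miR-652 and miR-98. limma called 0 of them in either comparison of tumours with controls, beside 8.33% of the 96 in the Ctnnb1 and 29.2% in the Ha-ras comparison. In Ctnnb1 against Ha-ras tumours miR-221 was lower and miR-223, a miRNA of granulocytes and macrophages, was higher by 0.82 (SE 0.23, limma adjusted p 0.0188), 1 of 6 each way beside 13.5% lower and 16.7% higher of the 96.

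Among the markers of other cell types, only smooth muscle and mesenchymal miRNAs were called in a comparison of tumours with controls. Of 5 smooth muscle and mesenchymal miRNAs, miR-143 and miR-199a-3p were tested, and miR-145 and miR-214 were detected on no array. Both were called lower in Ha-ras tumours, beside 19.8% of the 96. miR-143 was tested only because every untreated control array detected it. Its call thus partly follows from the filter and the floor, and is no separate support for the list. miR-199a-3p fell by 1.51 on the log2 scale in Ha-ras tumours (limma adjusted p 0.000509) and by 1.16 in Ctnnb1 tumours (limma adjusted p 0.00187). miR-143 was not well above background on any Ha-ras tumour array and was at 4.67, 5.60 and 5.67 in untreated controls, so only a bound can be given: it was at least 1.40-fold lower in Ha-ras tumours (limma adjusted p 0.0146). None of these 3 differences was called with scaling on all mouse probes. The summed scaled intensity of the 2 was 55.9 to 59.2 in Ha-ras tumours, against 90.3 to 175 in untreated controls, and 58.9 to 94.2 in Ctnnb1 tumours, against 134 to 144 in phenobarbital controls. The endothelial miR-126-3p summed to 501 to 647 in Ha-ras tumours and 604 to 748 in untreated controls, and to 529 to 765 in Ctnnb1 tumours, all below the 775 to 782 of the phenobarbital controls, as in 13.5% of the 96. Its log2 fold change there was -0.28 (limma adjusted p 0.154). Of 6 leukocyte miRNAs 3 were tested, miR-150 and miR-155 were detected on no array, and the sum was 176 to 455 in Ha-ras tumours and 235 to 449 in untreated controls, and 263 to 507 in Ctnnb1 tumours and 357 to 413 in phenobarbital controls. The 2 tested erythroid miRNAs of 3 summed to 1459 to 5387 in Ha-ras tumours and 1269 to 5006 in untreated controls, and to 1931 to 4168 in Ctnnb1 tumours and 3290 to 4576 in phenobarbital controls. The part of cell composition in the miR-221 levels was not tested.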

How the data were processed

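Spot intensity values were made by the authors with Agilent Feature Extraction 10.7.3.1 and protocol miRNA_107_Sep09, per the file headers. The intensity used is the software's background-subtracted signal, not normalised between arrays. The deposited value table holds log2 values of 146 mouse miRNAs, a scale read from its values; R 2.14.1 is the tool named in the submitters' processing notes, and how it was normalised is not stated in the labels.

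Outlier spots were left out, spots of a probe averaged and signals scaled on the 75th percentile of the 117 mouse probes detected on all 16 arrays; a probe counted as detected where over 50% of its spots were well above background. Values were floored at 24.96, taken to log2, and averaged over a miRNA's probes. limma 3.58.1 in R 4.3.3 fitted 4 group means over the 16 arrays. Exact permutation tests ran through every split or ordering of the samples, and SciPy 1.17.1 made their Benjamini-Hochberg adjustment. The fit was tested on simulated data. The number of arrays limits the precision.

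Named miRNAs are the 2 members, the tested members of the Ras, liver cancer and X chromosome lists, marker lists, and the 5 most and 3 least like miR-221. The members and lists were chosen with earlier results of these data known. Planned tests of the ratio and correlation of miR-221 and miR-222 were not run, since every miR-222 value lay at the floor. Alternatives covered scaling, background correction, floor, probe summary, filter, slide, samples, pairing and each array left out.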

Additional observations from a re-analysis of the deposited data

Results flagged for a closer look

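The fitted tumour effect on miR-31, a miRNA of the Ras list, differed between the genotypes. Ctnnb1 tumours over phenobarbital controls less Ha-ras tumours over untreated controls gave -1.08 on the log2 scale (SE 0.15, limma adjusted p 0.000168). miR-31 was well above background on 3 of 3 Ha-ras tumour arrays and 2 of 3 untreated control arrays. The same held on 1 of 7 Ctnnb1 tumour arrays and 1 of 3 phenobarbital control arrays. Most values of the Ctnnb1 tumours equal the floor, which lowers the fitted spread. miR-31 was tested only because every Ha-ras tumour array detected it. Its difference thus partly follows from the filter and the floor, and is no separate support for the Ras list. The same difference did not pass for miR-221. No sample of the 7 Ctnnb1 tumours stood apart in the 7 sets of levels examined.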

How the results depend on the processing

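For miR-221, Ha-ras tumours minus untreated controls was positive in 32 of 32 alternatives and Ctnnb1 minus Ha-ras tumours negative in 32 of 32, but the calls moved. The first passed the threshold with scaling on all mouse probes (1.09, adjusted p 0.0103), quantile scaling (0.56, 0.0295) and a fit of its own groups alone (0.53, 0.0291); leaving out 1 array gave 0.45 to 0.61, called without Ctnnb1 tumour 1, 3 or 5. With normexp it was 0.14 (0.668). The second was no longer called with the median of detected probes (-0.39, 0.117), normexp (-0.19, 0.345), no filter on dim miRNAs (-0.50, 0.0630, with 149 tested), slide as a fixed block (-0.67, 0.186), within slide 1 (-0.67, 0.318, with 1 Ha-ras array), its own groups alone (-0.50, 0.0934) and only probes detected on all 16 arrays (-0.47, 0.0611, chosen after seeing the data); leaving out 1 array gave -0.58 to -0.41, and 8 of 16 kept the call. Ctnnb1 tumours minus phenobarbital controls reversed under normexp (-0.040, 0.933), and ranged from 0.17 to 0.32 with 1 array left out. normexp was run with an offset of 50, which draws the log2 levels of dim probes together. The part of the offset in the reversal was not tested. The contrast of controls ranged from -0.30 to -0.14 and the difference of tumour effects from -0.36 to -0.20 with 1 array left out. The cause of the other moves was not tested either. Scaling on all mouse probes, whose 75th percentile was 2.88 to 5.94 units and so near background, put the median over the 96 miRNAs at 0.28 in the Ha-ras contrast, where it was -0.06, and at -0.32 between tumours, where it was 0.08; relative to it miR-221 kept both signs.

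Whether same replicate numbers mark paired samples is not settled. Correlations of same-numbered deviations ran from -0.77 to 0.58, and so few pairs neither show pairing nor exclude it. With the replicate block miR-221 gave 0.51 (0.212) for Ctnnb1 tumours minus phenobarbital controls, 0.53 (0.118) for Ha-ras tumours minus untreated controls, -0.76 (0.160) between tumours and -0.027 (0.940) for the difference of effects; the controls share no numbers. Calls over all miRNAs were 8, 28, 29, 0 and 2 in the 5 contrasts, and ranged over 0 to 20, 2 to 31, 3 to 34, 0 to 6 and 0 to 4 under other settings, and over 5 to 18, 13 to 33, 5 to 29, 0 to 1 and 2 to 3 with 1 array left out. The counts moved most without Ctnnb1 tumour 1 (18) in the first contrast, Ha-ras tumour 1 or untreated control 2 (13 each) in the second and Ha-ras tumour 2 (5) in the third.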
